A study of Mus musculus with 2 samples.

Results

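The microRNA (miRNA) genes of blood cells and of microglia, the resident immune cells of the brain, were read in small-RNA libraries of whole mouse forebrain. The set held 8 of the 1973 genes with a row in the count tables. The 8 were chosen by name for what is known of their cell types, with earlier results of these data known. Mir451a, Mir144 and Mir486 formed the erythroid class, and Mir223, Mir155, Mir150, Mir146 and Mir142b the leukocyte class. Each was found by Ensembl identifier through the GENCODE M21 annotation. All 8 had a row and all 8 had enough reads to be tested.

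The series held 1 group, forebrain of B6NCrl mouse embryos at embryonic day 12.5, healthy and with no treatment or altered allele given in the labels. Replicate 1 pooled 120 embryos and replicate 2 pooled 68, males and females together, and RNA shorter than 30 nt was sequenced. Each pool gave 1 library, so the embryos, the dissection and the library making of a pool cannot be told apart. Reads counted on the strand of their gene numbered 4333194 in replicate 1 and 4397107 in replicate 2, and levels are counts per 1000000 of these (CPM). For a gene without reads, the 3 counts that a 0 allows equal 0.692 CPM in replicate 1 and 0.682 in replicate 2. All intervals are exact 95% ones and cover counting error only.

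A miRNA is a short RNA cut from the hairpin of a longer transcript. Loaded into an Argonaute protein, it pairs through its seed, bases 2 to 8, with messenger RNAs and lowers their output. At this stage the forebrain is fed by vessels carrying yolk sac-derived red cells, and microglia, which also descend from the yolk sac, are settling in it. A whole forebrain therefore holds red cells, a few leukocytes and microglia beside neural progenitors and young neurons. Whether a level reflects the number of such cells or the RNA in each cannot be told from bulk tissue.

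The mature sequences are shown first because a miRNA's seed defines what it can pair with and because the strand of the miR-142 locus decides how its reads are counted. They are RefSeq entries of build GRCm38.p6, written 5′ to 3′ with the seed in capitals. Of the 8 genes, 7 had at least 1 mature entry, and the miRNAs of Mir486 and miR-150-5p are named only. The erythroid entries came from chr11:78073005-78073241 on the plus strand.
miR-451a: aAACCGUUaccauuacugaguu
miR-144-5p: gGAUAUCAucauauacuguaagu
miR-144-3p: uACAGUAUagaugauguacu

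The leukocyte entries came from separate loci. Mir223 lies at chrX:96242817-96242926, Mir155 at chr16:84714140-84714204 and Mir150 at chr7:45121757-45121821, all on the plus strand. Mir146 lies at chr11:43374397-43374461 on the minus strand, and its miRNA is named miR-146a. Mir142 lies at chr11:87756864-87756927 on the plus strand, with Mir142b over it on the minus strand at chr11:87756841-87756955.
miR-223-5p: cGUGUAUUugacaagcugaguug
miR-223-3p: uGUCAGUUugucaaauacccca
miR-155-5p: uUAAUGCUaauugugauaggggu
miR-155-3p: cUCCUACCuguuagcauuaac
miR-150-3p: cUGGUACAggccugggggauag
miR-146a-5p: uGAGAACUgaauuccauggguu
miR-146a-3p: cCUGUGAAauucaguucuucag
miR-142a-5p: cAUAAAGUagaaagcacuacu
miR-142a-3p: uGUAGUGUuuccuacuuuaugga
miR-142b: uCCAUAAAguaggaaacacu

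Among the mature sequences above, no 2 genes of the set shared a seed. Only miR-146a-5p shared one with a miRNA of another gene in the RefSeq table, miR-146b-5p of Mir146b, printed here for comparison as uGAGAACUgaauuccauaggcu. Mir146b had 6 reads in replicate 1 and 3 in replicate 2, against 89 and 121 reads of Mir146. The counts are per gene and not per arm, so which arm of a hairpin was read is not known, and for Mir150 it need not be the arm printed.

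The hairpins of Mir451a and Mir142 show how a mature miRNA sits in its precursor. They are printed plus strand, 5′ to 3′, with the mature miRNA in capitals.
Mir451a: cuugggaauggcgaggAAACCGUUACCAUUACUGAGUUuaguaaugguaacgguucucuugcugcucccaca
Mir142: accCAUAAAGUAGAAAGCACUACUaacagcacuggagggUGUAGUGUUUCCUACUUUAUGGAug

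miR-451a is known to be made without DICER. Its hairpin is too short for that enzyme and is cut by AGO2 instead. In the Mir451a hairpin of 72 bases the mature miRNA took bases 17 to 38. In the minimum free energy fold by RNAfold the terminal loop took bases 35 to 38, so all 4 loop bases belonged to the mature miRNA. None of the mature miRNAs of Mir144, Mir223, Mir155, Mir146, Mir142 or Mir142b reached into its terminal loop in the same kind of fold.

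The tables had no row for Mir142, the gene that makes miR-142 across blood lineages, and a row for Mir142b, which is annotated on the other strand of the same place. Mir142b had 0 reads on its own strand in both replicates. On the strand opposite to it, which is that of Mir142, there were 1308 reads in replicate 1 and 1556 in replicate 2. All reads at this place thus lay on the Mir142 strand, and they are called reads of the Mir142 strand from here on. miR-142b is the exact complement of 20 of the 23 bases of miR-142a-3p, so a count that ignored strand would mix them. The opposite strand at Mir451a, where Mir451b is annotated without a row, had 0 reads in both replicates, and Mir144, Mir223, Mir155 and Mir146 had 0 opposite-strand reads too. Mir150 had 3 and 2 such reads and Mir486 had 4 and 6.

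**Figure D1:**
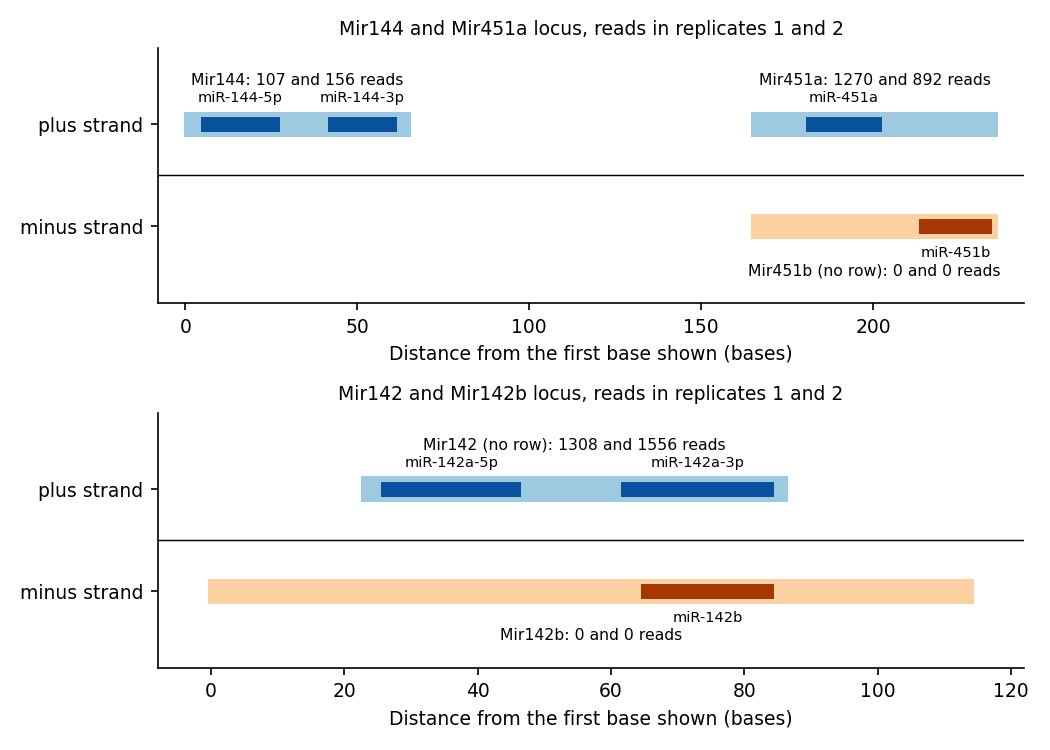
Maps of the Mir144 and Mir451a locus and of the Mir142 and Mir142b locus, drawn to scale in bases from the first base shown (x axis), with the plus strand above the line and the minus strand below. Light bars are annotated hairpins, dark bars mature miRNAs, and the reads of replicates 1 and 2 stand beside each hairpin; Mir142b had 0 reads on its own strand and 1308 and 1556 on the strand of Mir142.

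Erythroid miRNAs were present at low levels, and most of their reads came from Mir451a, 1270 of 1416 in replicate 1 and 892 of 1103 in replicate 2. The class held 0.0327% of assigned reads in replicate 1 (0.0310 to 0.0344%) and 0.0251% in replicate 2 (0.0236 to 0.0266%), a mean of 0.0289% ± 0.00537 (SD, n = 2). Without Mir451a the share was 0.00337% in replicate 1 and 0.00480% in replicate 2, and the order of the pools turned round.

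Mir451a (ENSMUSG00000070065.1) makes miR-451a, which accumulates as red cells mature and helps to protect them from oxidative stress. It had 1270 reads in replicate 1 and 892 in replicate 2, or 293 CPM (277 to 310) and 203 CPM (190 to 217). The level was higher in the pool of 120 embryos, and the intervals did not overlap.

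Mir144 (ENSMUSG00000065401.1) lies 99 bases before Mir451a on the same strand, and the pair is known to be cut from 1 primary transcript that GATA1 turns on in erythroid cells. Mir144 had 107 reads in replicate 1 and 156 in replicate 2, or 24.7 CPM (20.2 to 29.8) and 35.5 CPM (30.1 to 41.5). Its level was lower in replicate 1, the reverse of its neighbour. Neither gene lies within another annotated gene on its own strand in M21.

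Within a library, there were 11.9 reads of Mir451a for each of Mir144 in replicate 1 (9.74 to 14.6) and 5.72 in replicate 2 (4.82 to 6.82). The intervals did not overlap, so the neighbours did not keep 1 ratio in both libraries beyond counting error. Mir451a also stood at 32.6 reads for each of Mir486 in replicate 1 (23.7 to 46.0) and 16.2 in replicate 2 (12.3 to 21.7). Mir144 kept its ratio to Mir486 more closely, with 2.74 in replicate 1 (1.89 to 4.07) and 2.84 in replicate 2 (2.07 to 3.93).

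Mir486 (ENSMUSG00000070084.3) lies at chr8:23142555-23142682 in an intron of Ank1, the gene of a red cell membrane protein, and is also known from muscle. It had 39 reads in replicate 1 and 55 in replicate 2, or 9.0 CPM (6.40 to 12.3) and 12.5 CPM (9.42 to 16.3). These levels overlapped within counting error. A stretch of 22 bases of its hairpin occurs also in the reverse complement of the same hairpin, where Mir3107 is annotated without a row. Such a stretch of 20 bases or more was found in 77 of 1894 hairpins, or 4.07%, and Mir486 was the only member with one. Reads that match more than 1 place stood outside the gene counts. Whether this lowered the count of Mir486, and so changed its ratios to other members and its place among them, was not tested.

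Leukocyte miRNAs held more reads than erythroid ones in both pools. Their share was 0.0695% in replicate 1 (0.0671 to 0.0720%) and 0.0834% in replicate 2 (0.0807 to 0.0861%), a mean of 0.0764% ± 0.00979 (SD, n = 2). There were 0.470 erythroid reads for each leukocyte read in replicate 1 (0.441 to 0.501) and 0.301 in replicate 2 (0.281 to 0.322).

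The strand of Mir142 (ENSMUSG00000105196.1), which lies in an intron of its host gene Mir142hg and is used across blood lineages and in microglia, led the class. It reached 302 CPM (286 to 319) in replicate 1 and 354 CPM (337 to 372) in replicate 2. It was the most abundant of the 8 in both pools.

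Mir155 (ENSMUSG00000065397.1) lies in an exon of Mir155hg and makes a miRNA that activated lymphocytes, macrophages and microglia raise. It had 994 reads in replicate 1 and 1114 in replicate 2, or 229 CPM (215 to 244) and 253 CPM (239 to 269). Its coefficient of variation between the pools, 7.02%, was the lowest of the set, where the other 7 lay between 11.2% and 26.8%.

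Mir223 (ENSMUSG00000076066.1), a miRNA of granulocytes, monocytes and platelets that restrains neutrophil activity, had 574 reads in replicate 1 and 804 in replicate 2. These were 132 CPM (122 to 144) and 183 CPM (170 to 196). It lies in an exon of the non-coding gene F630028O10Rik. The intervals did not overlap, and replicate 1 was lower.

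Mir146 (ENSMUSG00000065601.1) makes miR-146a, which NF-kB turns on and which in turn restrains NF-kB signalling through TRAF6 and IRAK1. It had 89 reads in replicate 1 and 121 in replicate 2, or 20.5 CPM (16.5 to 25.3) and 27.5 CPM (22.8 to 32.9). Its hairpin shares 21 bases with that of Mir146b, which stood at 1.38 and 0.682 CPM. A longest shared stretch of 20 bases or more was found for Mir146 and Mir486 and for no other member.

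Mir150 (ENSMUSG00000065495.1), which is typical of mature lymphocytes and lowers Myb, had 47 reads in replicate 1 and 70 in replicate 2. These were 10.8 CPM (7.97 to 14.4) and 15.9 CPM (12.4 to 20.1). It was the lowest of the leukocyte genes in both pools.

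**Figure D2:**
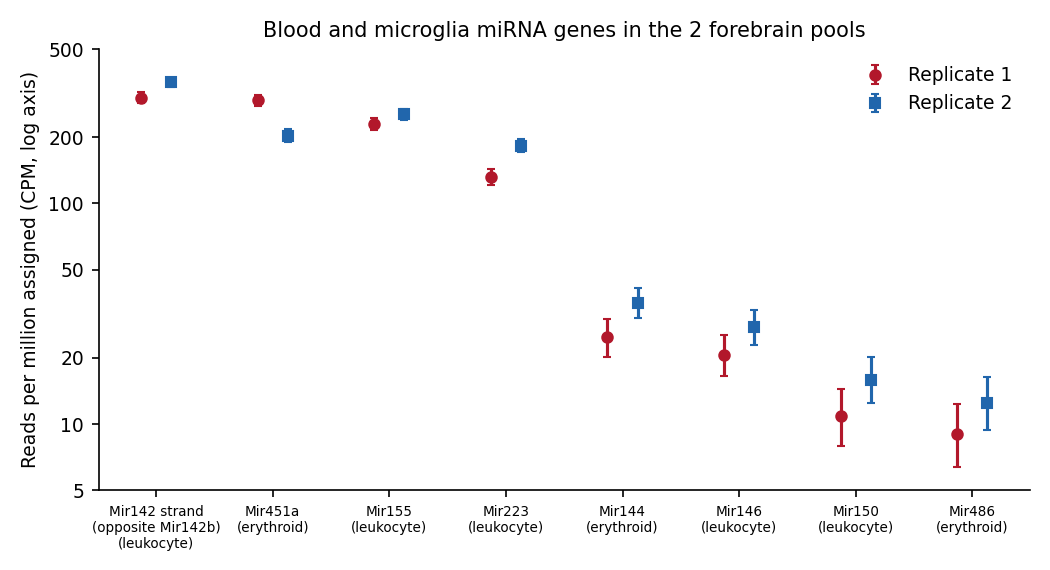
Level of each gene in CPM (log axis) in replicate 1 (circles) and replicate 2 (squares), with exact 95% counting intervals, ordered by mean. Of the 8, Mir451a alone was higher in replicate 1, at 293 CPM, than in replicate 2, at 203 CPM.

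By mean CPM the order was the Mir142 strand at 328 ± 36.8, Mir451a at 248 ± 63.8, Mir155 at 241 ± 16.9, Mir223 at 158 ± 35.6, Mir144 at 30.1 ± 7.63, Mir146 at 24.0 ± 4.93, Mir150 at 13.4 ± 3.59 and Mir486 at 10.8 ± 2.48 (SD, n = 2). The values of the pools overlapped for the neighbours Mir451a and Mir155, for Mir144 and Mir146, and for Mir150 and Mir486. They did not overlap for the other 4 pairs of neighbours. The set thus fell into 4 genes of over 100 CPM and 4 with means of at most 30.1 CPM, with Mir223 5.24 times Mir144.

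The order among the first 3 depended on the scale. Per 100 bases of annotated hairpin the means were 371 CPM for Mir155, 344 CPM for Mir451a and 285 CPM for Mir142b, whose hairpin of 115 bases is longer than the 64 bases of Mir142. With the length of Mir142 the strand stood first at 512 CPM per 100 bases. Reads in these libraries come from miRNAs of like length and not from whole hairpins, so CPM is used elsewhere.

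Among all 1973 genes the Mir142 strand took place 163, Mir451a place 175, Mir155 place 179 and Mir223 place 200. Mir144 took place 275, Mir146 place 283, Mir150 place 310 and Mir486 place 318. All 8 together held 0.105% ± 0.00442 of assigned reads (SD, n = 2). They were thus rare in the libraries although each lay above at least 83.9% of the genes in the tables. Only 522 of the 1973 genes reached a mean of 1 CPM, so that share counts many genes with few or no reads.

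Replicate 1 was lower than replicate 2 in 7 of the 8 genes, and Mir451a was higher. Of all 512 genes tested, 288 (56.2%) were lower in replicate 1. In a two-sided Fisher's exact test on reads, adjusted over 512 genes by the Benjamini-Hochberg method, 4 of the 8 genes differed at an adjusted p under 0.05. Over all genes tested the share called was 32.8%. This test compares 2 libraries and not conditions, and edgeR's exact test, with the variation estimated from these same libraries, called none of the 8 and 5 of the 512.

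Mir451a was higher in replicate 1, the only member among the 12.5% of genes called in that direction, with a log2 ratio on CPM + 1 of 0.53 and an adjusted p of 1.92e-16 by Fisher's exact test. In the other direction 20.3% of genes were called. They included Mir223 with a log2 ratio of -0.46 and an adjusted p of 2.08e-08 by Fisher's exact test. The Mir142 strand had -0.23 and an adjusted p of 0.000106, and Mir144 had -0.51 and an adjusted p of 0.013, by the same exact test. Both erythroid neighbours were thus called, with opposite signs.

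The other 4 did not pass. Mir155 had a log2 ratio of -0.14 (adjusted p = 0.0667, Fisher's exact test), Mir146 -0.40 (adjusted p = 0.102), Mir150 -0.51 (adjusted p = 0.108) and Mir486 -0.43 (adjusted p = 0.249). Mir146, Mir150 and Mir486 had the fewest reads of the set, 39 to 121 a library, and differences of 0.40 to 0.51 did not pass at this depth. No member reached a 2-fold difference, which 2.73% of genes did together with the adjusted p of Fisher's exact test, and an unadjusted p under 0.05 was found for 7 of the 8 members and for 205 of the 512 genes (40.0%).

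**Figure D3:**
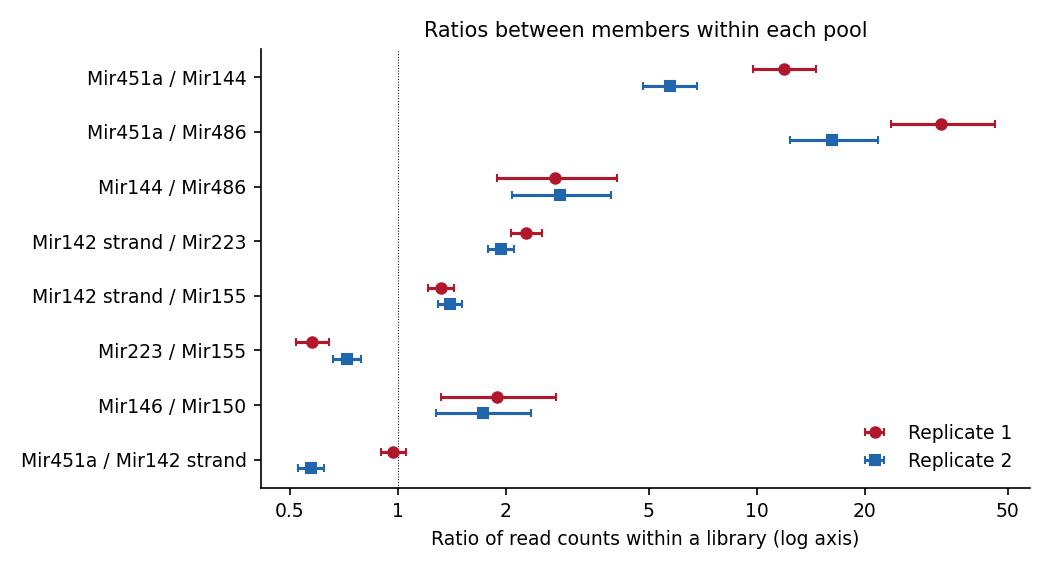
Ratio of reads between pairs of genes within each library (log axis) in replicate 1 (circles) and replicate 2 (squares), with exact 95% counting intervals. Mir451a over Mir144 was 11.9 in replicate 1 and 5.72 in replicate 2 with no overlap, while Mir144 over Mir486 was 2.74 and 2.84.

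The median log2 ratio was -0.42 over the 8 members and -0.04 over the 512 genes tested. In absolute size the median of the members was 0.45, against 0.19 over 154 tested genes between the lowest and the highest member in level, and 7 of the 8 lay above that value. The 90th percentile was 0.52 for the members and 0.56 for those 154 genes, with members among them. For 8 values this percentile rests on the largest few, so no statement on the tail is drawn from it. Within the leukocyte class the ratio of Mir223 to Mir155 did not overlap between the pools. There were 0.577 reads of Mir223 for each of Mir155 in replicate 1 (0.520 to 0.641) and 0.722 in replicate 2 (0.658 to 0.791). The Mir142 strand and Mir155 kept a closer ratio, 1.32 in replicate 1 (1.21 to 1.43) and 1.40 in replicate 2 (1.29 to 1.51), with overlapping intervals. Mir146 and Mir150 also overlapped, at 1.89 (1.32 to 2.76) and 1.73 (1.28 to 2.35).

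As shares of the reads of all 8, Mir451a held 28.7% in replicate 1 and 18.7% in replicate 2. The Mir142 strand held 29.5% and 32.6%, Mir155 22.4% and 23.4%, and Mir223 12.96% and 16.9%. The remaining 4 genes held at most 3.27% each in either pool. In replicate 1 the reads of Mir451a nearly equalled those of the Mir142 strand, with 0.971 for each (0.898 to 1.05), and in replicate 2 they did not, with 0.573 (0.527 to 0.623).

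**Figure D4:**
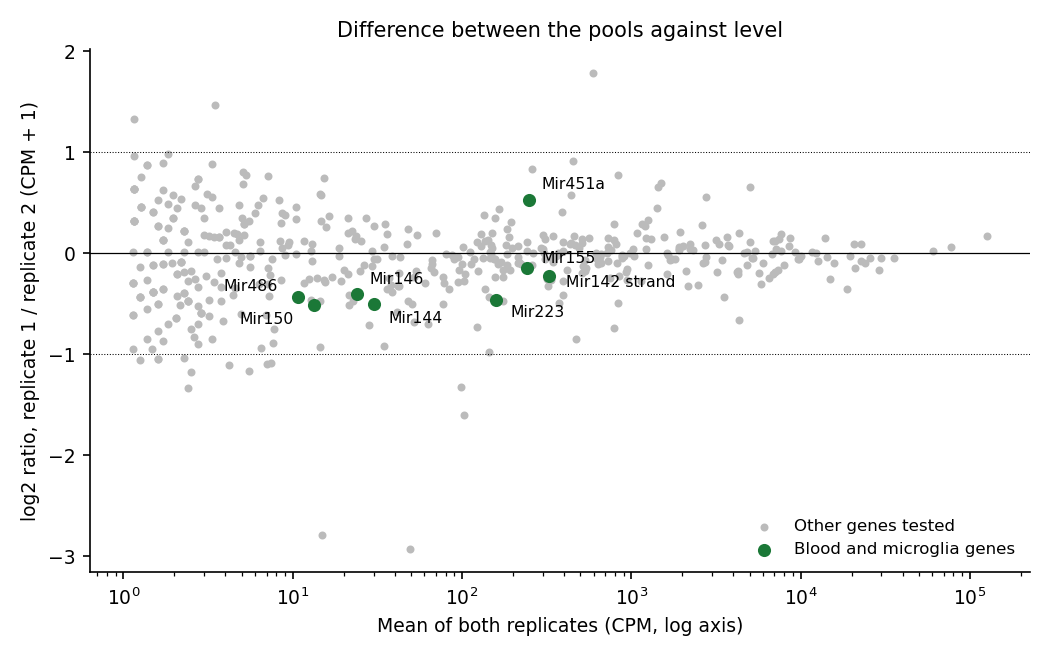
Log2 ratio of replicate 1 over replicate 2 on CPM + 1 (y axis) against the mean of both replicates in CPM (x axis, log scale) for the 512 genes tested, with the 8 blood and microglia genes in green and dotted lines at 2-fold. Mir451a lies at 0.53 and the other 7 lie between -0.51 and -0.14.

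Markers of other non-neural cells also differed between the pools, and not all in 1 direction. Mir126a of endothelial cells was read at 16564 CPM in replicate 1, against 21180 in replicate 2. The mural cell genes Mir143 and Mir145a summed to 5322 and 6577 CPM, and the surface epithelium genes Mir203 and Mir205 to 2608 and 3377 CPM. These 5 genes were all lower in replicate 1 by Fisher's exact test, which called 20.3% of all 512 genes lower and 12.5% higher. The epithelial miR-200 genes, which were outside the lists and were added after their values were seen, were higher in replicate 1 by the same test. Mir200a had a log2 ratio of 1.79 and Mir141 one of 0.84. The log2 ratio was 0.69 for Mir200b and 0.65 for each of Mir429 and Mir200c. All 8 members summed to 1022 CPM in replicate 1, against 1084 in replicate 2. The erythroid class alone was higher in replicate 1, at 327 against 251 CPM. Without Mir451a, left out after the values were seen, the other 7 members summed to 729 and 881 CPM. Of 7 names for neural miRNAs, 6 had a row, with a median log2 ratio of -0.02. Only 3 of these 6 reached a mean of 10 CPM, and the Mir124a genes among the 6 had 6 to 31 reads a library. These counts leave out reads that match several places. Whether this lowered the counts of the Mir124a genes was not tested, so they are not read as the level of miR-124. Mir153 was called higher in replicate 1, at 3304 against 2251 CPM, and Mir137 lower, at 5127 against 5286 CPM. The part of vessel, epithelium or dissection differences in the levels of the members was not tested.

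A further list named 11 miRNAs known from blood lineages among other tissues, of which 8 had a row and 7 had enough reads to test. By Fisher's exact test with adjustment over all 512 genes, 2 were higher and 2 lower in replicate 1. Over all 512 genes the same test called 12.5% higher and 20.3% lower, 32.8% in all. Mir221 and Mir222, which restrain KIT in erythroid precursors and are also made by vessels, were lower. Mir221 stood at 284 and 356 CPM in replicates 1 and 2, and Mir222 at 144 and 171 CPM. Mir147, induced in activated macrophages, was higher, with 19.4 CPM in replicate 1 against 11.1 in replicate 2.

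The 3 most abundant genes of that list are made in many cell types. Mir342 stood at 12395 and 12416 CPM, Mir21a at 7259 and 7073 CPM, and Mir210, which hypoxia induces, at 768 and 749 CPM. Each differed by less than 3% between the pools, and Mir21a passed the test. Mir511, which lies in the macrophage gene Mrc1, had 8 reads in replicate 1 and 13 in replicate 2, and Mir146b had too few reads to be tested. Mir451b and Mir3107 had no row, and Mir486b matched no symbol in the annotation. The list's median log2 ratio was -0.0024, near that of all genes tested.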

How the data were processed

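Per the labels, each library was made from RNA below 30 nt of 1 pool of embryonic forebrains. The deposited tables hold raw read counts per gene, from the authors' alignments to mm10 with genome annotation M4, per the notes of the deposited files. The aligner, counter and adapter handling were not given in the sources used here. The count in column 2 equalled the sum of columns 3 (gene strand) and 4 (opposite strand) in every gene. Which strand a column holds was read from the values, since 2.69% and 2.78% of reads in genes lay in column 4. The first 4 rows name no gene and hold 61.0% and 60.6% of reads, with 37.9% in both libraries matching several places. Neither library sizes nor tests include them.

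Symbols came from GENCODE M21 (1894 of 1973 identifiers matched). Mir142b was read in column 4, other genes in column 3, and CPM used assigned gene-strand reads. With 1 group of 2 libraries no contrast between conditions could be fitted. Genes whose reads summed to 10 or more over the libraries were compared by Fisher's exact test (SciPy 1.17.1) with Benjamini-Hochberg adjustment. For the Mir142 strand, which is not part of the assigned total, all assigned reads were the other cell. Ratios are replicate 1 over replicate 2 with a pseudocount of 1 CPM. Intervals are exact (Clopper-Pearson). Only the step of Fisher's exact test was tried on simulated counts. These held counting error and no other variation between libraries, so they do not show how the test behaves with such variation. Library sizes from edgeR 4.0.16 and DESeq2 1.42.0 in R 4.3.3, and edgeR's exact test with its common dispersion, were alternatives. Hairpins were folded with RNAfold 2.7.2, and shared stretches were sought among M21 hairpins. Python 3.11.15 with NumPy 2.4.6, pandas 2.3.3 and matplotlib 3.10.9 was used. The members and lists were chosen with earlier results of these data known. The text names the 8 members, genes on their opposite strand or within 10 kb, and members of the list of other blood-lineage miRNAs. In that list genes under 10 CPM are named as well for their counts. Host genes of members and genes of the endothelial, mural, surface epithelium and neural lists are also named. The miR-200 genes were added after their values were seen.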

Additional observations from a re-analysis of the deposited data

Results flagged for a closer look

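Reads outside the main measurement were present at Mir486, where the strand opposite to the gene carried 4 reads in replicate 1 and 6 in replicate 2, each above the 3 counts that a count of 0 allows. Reads matching several places numbered 4213961 in replicate 1 and 4224434 in replicate 2, and were picked out by the same measure, which any such total passes. There were no control samples. How many of these reads belong to the blood and microglia genes was not tested.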

How the results depend on the processing

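No paired analysis was possible because the series holds 1 group. The erythroid share of 0.0289% became 0.0113% with all reads of the tables as the library size, 0.000114% with the other strand column and 0.00408% without Mir451a, the last chosen after seeing the data. The leukocyte share of 0.0764% became 0.0300% with all reads, 0.0874% without the most abundant gene in the library size, 5.74e-05% with the other strand column and 0.0436% without Mir142b, again chosen after seeing the data. Each of these follows from a changed total or from fewer reads counted. With 1 replicate left out the shares ran from 0.0251% to 0.0327% and from 0.0695% to 0.0834%, and no test between libraries was then possible. Both-strand totals, TMM and DESeq2 size factors moved neither share by more than the SD between replicates. Of 512 genes, 14 were called with the 2-fold minimum and 168 without it, and 5 with edgeR's exact test, whose wider spread includes variation between libraries. The members called numbered 0 with the minimum, 4 without it and 0 with edgeR's exact test. The spread in edgeR's test was estimated from the same 2 libraries that it compared, so its low counts do not show that the libraries were alike. All 32 recomputed log2 ratios of the members kept their sign. Under both other scalings each member also kept its side of the adjusted p of 0.05 by Fisher's exact test. The other pseudocounts could change neither the sign nor the test on reads, so they are no check of either. Among the members, 2 shared a stretch of 20 or of 18 bases with another hairpin and 3 one of 16 bases. Depth limits Mir486, Mir150, Mir146 and Mir144, with 39 to 156 reads a library.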
